A study of Mus musculus with 288 samples.

Results

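The mitochondrially encoded transcripts were examined in single mouse embryonic stem cells, as all rows of the deposited count table whose name begins with mt-. There were 37 such rows of 54232. They held 13 protein-coding genes, 2 ribosomal RNAs (rRNAs) and 22 transfer RNAs (tRNAs), which is the full gene content annotated for mouse mitochondrial DNA. Of 288 wells, 233 were kept as passing cells. A passing cell had more than 200000 reads, more than 2000 genes with a read and a share of reads on mt- rows under 15%.

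The cells were labelled E14, a mouse embryonic stem cell line of strain 129/Ola. Those labelled D0 were held in 2i+LIF medium, with the GSK3 inhibitor CHIR99021, the MEK inhibitor PD0325901 and leukaemia inhibitory factor. Those labelled D1 and D2 were taken 24 h and 48 h after release from the inhibitors into serum with LIF. RNA and DNA of each sorted cell were separated after its open chromatin had been methylated with M.CviPI, and only the RNA of this protocol (scNMT-seq) was used here. Each label held 96 wells and, as far as the labels show, 1 culture on 1 plate. Time therefore cannot be told apart from plate and library. Cells of 1 culture do not replicate a condition, so labels were compared by values and SDs between cells, without a test.

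The passing cells were 90 of D0, 50 of D1 and 93 of D2. Their reads on genes ranged from 202157 to 43336922, and the median cell had about 1610760 (D0), 7956160 (D1) or 2162090 (D2). With every cell thinned to 200000 reads, a D2 cell had a median of 3952 detected genes, against 7823.5 for D0 and 8058 for D1. All 5 pluripotent markers (Pou5f1, Sox2, Nanog, Zfp42 and Esrrb) were detected in most cells of every label. None of the 5 markers each of primitive endoderm, trophectoderm and fibroblasts was detected in 50% of cells in any label. The summed level of each of these lists had a median of 0 CPM (counts scaled to the total of each cell) in every label, with single cells reaching at most 181, 902 and 30.4 CPM. Reads of Hprt were present in 96% of D1 cells, against 10.0% in D0 and 7.53% in D2, and Y-linked genes (Ddx3y, Eif2s3y, Kdm5d, Uty) in 96%, 3.33% and 5.38%. Whether the D1 cells are of the same line as those of D0 and D2 is therefore not certain from these counts. In every value of D1 over D0 and of D2 over D1, time and such a difference between cells cannot be told apart.

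Mitochondrial DNA is a small circle that is transcribed from both strands into long precursors. The tRNAs lie between most of the other genes, and their excision by RNase P and ELAC2 frees the mRNAs and rRNAs, which then receive a short poly(A) tail and turn over at different rates. The proteins are subunits of complex I (Nd1 to Nd6 and Nd4l), complex III (Cytb), complex IV (Co1 to Co3) and ATP synthase (Atp6 and Atp8). All other subunits are encoded in the nucleus. The nuclear genome also carries old insertions of mitochondrial DNA, and a read that matches both places cannot be assigned to either.

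Several of the 37 genes have such a nuclear twin among annotated transcripts of GENCODE vM21 (GRCm38), and the twins bear on which mt- rows can be read as levels. Of the 75-base stretches of mt-Co2, 99.5% stand letter for letter in another transcript. The share was 99.5% for mt-Atp6, 99.9% for mt-Co3, 97.8% for mt-Nd3 and 98.7% for mt-Nd4l. For mt-Nd4 it was 61.5%, for mt-Co1 39.8%, for mt-Nd2 5.71% and for mt-Nd5 1.66%, and it was 0 for the rRNAs, mt-Nd1, mt-Nd6, mt-Cytb and mt-Atp8. The twins of mt-Co1 (its last part), mt-Co2, mt-Atp6, mt-Co3, mt-Nd3, mt-Nd4l and mt-Nd4 (its first part) are 7 unprocessed pseudogenes that lie side by side on the minus strand of chr1:24611535-24616197, a span of 4663 bases. Between the twins of mt-Co2 and mt-Atp6 lie 233 bases, as many as between the matching points of mitochondrial DNA. This is where mt-Atp8 and the tRNA mt-Tk stand in the circle, and no transcript is annotated there on chromosome 1. Whether the bases there match was not checked. The next sequences show 3 grades of likeness, each as 75 bases of the gene and of its twin, with the bases that differ in capitals. The stretch from the middle of mt-Co2 is bases 305 to 379, that of mt-Nd3 is its first 75 bases, and that of mt-Cytb is bases 535 to 609.

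mt-Co2: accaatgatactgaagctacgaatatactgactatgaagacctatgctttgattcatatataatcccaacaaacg
Gm28661: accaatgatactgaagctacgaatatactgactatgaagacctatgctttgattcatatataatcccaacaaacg
mt-Nd3: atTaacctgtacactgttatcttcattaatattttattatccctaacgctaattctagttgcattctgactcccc
Gm28438: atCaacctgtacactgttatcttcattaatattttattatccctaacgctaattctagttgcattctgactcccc
mt-Cytb: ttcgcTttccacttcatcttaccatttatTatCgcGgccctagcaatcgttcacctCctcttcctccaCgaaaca
Gm11410: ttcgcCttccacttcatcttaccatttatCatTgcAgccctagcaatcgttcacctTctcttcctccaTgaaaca

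The mt-Co2 stretch (chrM:7317-7391, plus strand) and that of Gm28661 (chr1:24615187-24615261, minus strand) do not differ. The mt-Nd3 stretch (chrM:9459-9533, plus strand) and that of Gm28438 (chr1:24613045-24613119, minus strand) differ by T3C, counted from the first base of mt-Nd3, and this is the only difference in the 345 aligned bases. It falls in the start codon and lies at position 9461 of chrM. The mt-Cytb stretch (chrM:14679-14753, plus strand) and that of Gm11410 (chr4:80004523-80004597, plus strand) differ at 6 bases. The tRNAs with the most reads are printed whole, with the anticodon in capitals. They are mt-Tq, the tRNA for glutamine (chrM:3772-3842, minus strand), and mt-Tp, that for proline (chrM:15356-15422, minus strand).

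mt-Tq: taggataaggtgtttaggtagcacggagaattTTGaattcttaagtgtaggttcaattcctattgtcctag
mt-Tp: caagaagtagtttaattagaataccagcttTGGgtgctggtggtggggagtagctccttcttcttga

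The mt- rows together took 5.04% ± 2.14 of the reads of a cell in D0 (SD between cells, n = 90 cells), 3.47% ± 1.93 in D1 (n = 50) and 1.39% ± 0.52 in D2 (n = 93). In D0 the share ran from 1.22% to 10.4% with a median of 4.54%. In D1 it ran from 0.739% to 10.2%, and 38 of 50 cells lay below the D0 median. All 93 D2 cells lay below that median, and the highest reached 2.78%. Of the D0 cells, 75 of 90 stood above every D2 cell, while 38 of 93 D2 cells stood below every D0 cell. On the log2 scale the mean share was -0.54 in D1 over D0, -1.86 in D2 over D0 and -1.32 in D2 over D1. Reads of a cell sum to a fixed whole, and no spike-in was counted, so fewer mitochondrial transcripts and more of the other transcripts cannot be told apart. With reads summed over cells and scaled by TMM factors, these ratios were -0.38, -1.86 and -1.49.

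**Figure D1:**
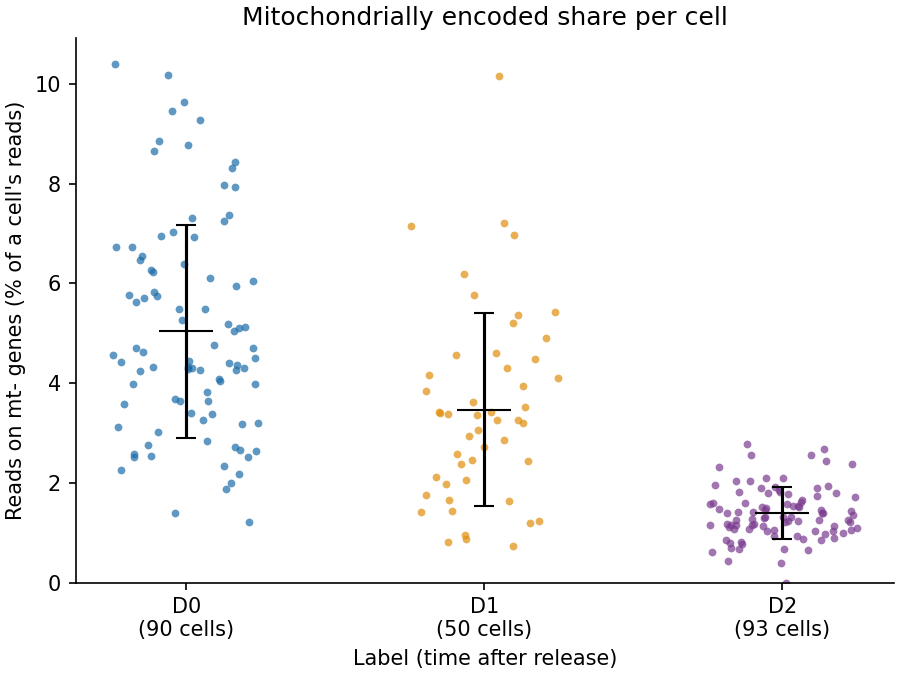
Share of a cell's reads on the 37 mt- rows (vertical axis, percent) for each passing cell labelled D0, D1 or D2 (horizontal axis, with the number of cells); the cross bar is the mean and the whiskers 1 SD between cells. The D2 cells sit between 0.000713% and 2.78%, below 75 of the 90 D0 cells, while D1 cells span 0.739% to 10.2%.

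The order D0, D1, D2 of the means was the same on both sides of the plates, but the gap between D0 and D1 was not. In plate columns 1 to 6 the mean share was 4.58% ± 1.84 in D0 (n = 43 cells), 3.91% ± 2.19 in D1 (n = 24) and 1.42% ± 0.52 in D2 (n = 47). In columns 7 to 12 it was 5.46% ± 2.33 (n = 47), 3.06% ± 1.60 (n = 26) and 1.36% ± 0.53 (n = 46). The D1 difference of -0.54 therefore became -0.23 on the first side and -0.83 on the other. A further choice kept only D1 cells with an Hprt read, and only D0 and D2 cells without a read of Hprt or the Y-linked genes. The values over D0 were then -0.48 for D1 and -1.84 for D2. This choice keeps D1 apart from D0 and D2 in Hprt reads, so it cannot separate time from such a difference between cells. No passing cell came near the limit of 15%, since 3 of 233 cells exceeded 10% and 0 of 233 exceeded 12%.

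A single D2 cell, in well A9, had almost no mitochondrial transcripts. It had 12 reads on 4 mt- genes (mt-Co1 6, mt-Nd1 2, mt-Nd5 2 and mt-Cytb 2) among 1682543 reads, a share of 0.000713% (exact 95% interval 0.000369% to 0.00125%). The next lowest cell of any D2 well held 0.386%, which is 541 times as much. It had 4624 detected genes, where the D2 median was 4744, 1117 CPM of Pou5f1, and 2.41% of its reads on the 76 nuclear genes of the respiratory chain and ATP synthase, against 2.88% ± 0.60 in the other 92 D2 cells. Of 233 passing cells, 1 lay below 0.15%, and this was it. Without it the D2 mean was 1.40% ± 0.51, and the ratio to D0 was -1.84 on the log2 scale.

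The mRNAs carried nearly all of these reads. They made up 95.5% ± 3.53 of the mt- reads of a cell in D0, 97.3% ± 2.17 in D1 and 95.5% ± 5.03 in D2. The 2 rRNAs, which form the small and large subunit RNAs of the mitochondrial ribosome, made up 4.47% ± 3.52, 2.55% ± 2.13 and 4.47% ± 5.03. The 22 tRNAs made up 0.0406% ± 0.0445, 0.193% ± 0.399 and 0.0183% ± 0.0316. The medians of the tRNA part were 0.0314%, 0.0402% and 0.00587%, so that its D1 mean lay far above its median. The labels describe the RNA as polyA RNA, so that these shares are of the molecules captured and not the make-up of the organelle.

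The rRNA reads were set against the mRNA reads of the same cell. The mRNA reads are those counted, so mRNAs with a near-identical twin may be undercounted in them. The ratio had a median of 0.0383 in D0, with cells from 0.0161 to 0.480, a median of 0.0201 in D1, from 0.00356 to 0.117, and a median of 0.0217 in D2, from 0 to 0.251. The means were 0.0486 ± 0.0505, 0.0267 ± 0.0236 and 0.04996 ± 0.0605. In D1 over D0 the ratio of means was -0.87 on the log2 scale and the ratio of medians -0.93, but without a filter on cells the ratio of means was only -0.17. In D2 over D0 the ratio of means was 0.04 and that of medians -0.82, so the direction depended on the summary used. Both rRNAs were lower in D1 and in D2 than in D0. The 12S rRNA mt-Rnr1 had a mean of 617 ± 464 CPM in D0 (lowest 137, median 498, highest 3403), 245 ± 217 in D1 (36.9, 174 and 1087) and 107 ± 96.6 in D2 (0, 83.7 and 420). The 16S rRNA mt-Rnr2 had a mean of 1700 ± 2977 CPM in D0 (363, 1131 and 27822), 628 ± 950 in D1 (74.8, 372 and 6182) and 544 ± 807 in D2 (0, 176 and 4396). The means of mt-Rnr2 stood well above its medians in all 3 labels, and of all 9 abundant mt- RNAs it had the largest SD over mean in each. In D0 most of its SD comes from the cell of 27822 CPM, and its place without that cell was not computed.

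Among the mRNAs, mt-Co1, the catalytic subunit of complex IV, had the highest mean in every label, with a smaller lead in D2. Its level was 24341 ± 12391 CPM in D0 (lowest cell 4050, median 21189, highest 56417), 16806 ± 11447 in D1 (1576, 13529 and 65200) and 4217 ± 2144 in D2 (3.57, 3946 and 11211). It took 49.3% ± 8.49 of the mitochondrial mRNA reads of a cell in D0, 48.2% ± 11.8 in D1 and 32.6% ± 11.5 in D2. It was the mt- gene with the most reads in 88 of 90 D0 cells, in 41 of 50 D1 cells and in 44 of 93 D2 cells. In the other D2 cells the first place went to mt-Nd1 (32 cells), mt-Cytb (13 cells) and mt-Nd5 (4 cells).

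mt-Cytb, the mitochondrially encoded subunit of complex III, was the mRNA of the abundant set whose level differed least from D0, though in D2 over D1 it differed more (-0.74) than mt-Nd5. Its mean was 4672 ± 2582 CPM in D0 (lowest cell 1064, median 3908, highest 13302), 4552 ± 3284 in D1 (782, 3820 and 20870) and 2718 ± 2506 in D2 (1.19, 2071 and 17840). The log2 ratios over D0 were -0.04 and -0.78. Its part of the mitochondrial mRNA reads came to 10.1% ± 5.26 in D0, 13.6% ± 5.06 in D1 and 19.6% ± 12.2 in D2. The log2 ratio of mt-Co1 to mt-Cytb reads in a cell averaged 2.38 ± 0.72 in D0, 1.86 ± 0.79 in D1 and 0.89 ± 1.23 in D2, and mt-Cytb exceeded mt-Co1 in 1, 2 and 19 cells.

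**Figure D2:**
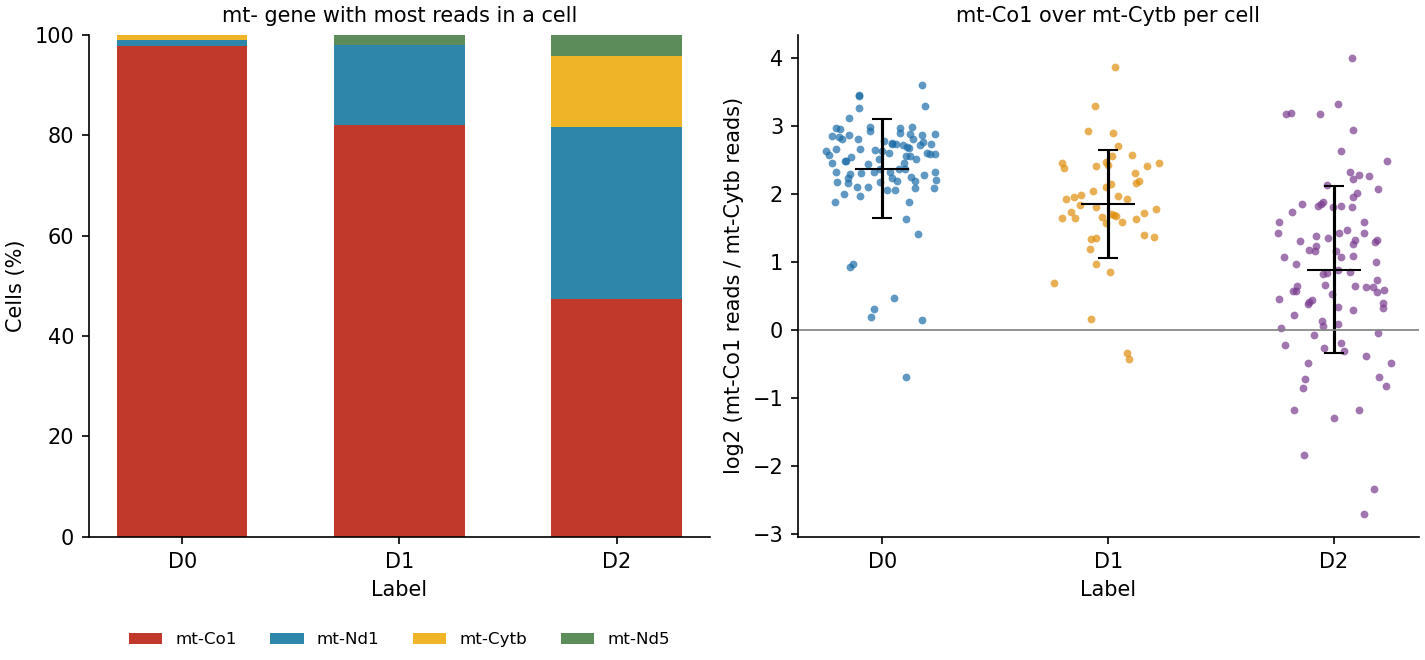
Left, percent of the passing cells of each label in which mt-Co1, mt-Nd1, mt-Cytb or mt-Nd5 had the most reads of all mt- genes; right, the log2 ratio of mt-Co1 to mt-Cytb reads in each cell, with mean and 1 SD between cells. mt-Co1 led in 88 of 90 D0 cells and 44 of 93 D2 cells, and the ratio went below 0 in 19 D2 cells.

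The complex I subunits differed in how far they were lower. mt-Nd1, a membrane subunit near the quinone site, had 9860 ± 3958 CPM in D0 (lowest cell 1808, median 9371, highest 20143), 7888 ± 4737 in D1 (1643, 6923 and 22922) and 3659 ± 2047 in D2 (1.19, 3265 and 11496). mt-Nd5, a proton-pumping subunit, had 5781 ± 2877 CPM in D0 (1409, 5377 and 14591), 2435 ± 1502 in D1 (103, 2477 and 8541) and 2099 ± 1404 in D2 (1.19, 1927 and 7961). Among passing cells, most of the difference in mt-Nd5 lay between D0 and D1 (-1.25 on the log2 scale, against -0.21 for D2 over D1). Most of that in mt-Nd1 lay between D1 and D2 (-0.32 and -1.11). Without a filter on cells the mt-Nd5 value for D1 over D0 was only -0.75. mt-Nd2 and mt-Nd4, pumping subunits of the same arm, had 1249 ± 695 and 1645 ± 798 CPM in D0. In D1 they had 524 ± 480 and 1300 ± 778 CPM, and in D2 211 ± 196 and 277 ± 256.

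mt-Nd6 is the single protein gene of the other strand, and its mRNA is known to lack the usual poly(A) tail. It had 451 ± 223 CPM in D0 (lowest cell 80.2, median 402, highest 1198), 206 ± 180 in D1 (4.95, 183 and 1120) and 45.1 ± 50.1 in D2 (0, 31.7 and 237). Its log2 ratio of -3.32 in D2 over D0 was the lowest of the 9 abundant mt- RNAs. The end of mt-Nd5 overlaps mt-Nd6 on the other strand, and whether the counting used strand is not given in the sources used here.

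Per length the order of levels depends on which stretches are taken, since it is not known where the reads of a row lay. Over the whole gene the mean level in D0 was 15755 CPM per kb for mt-Co1, 10303 for mt-Nd1, 4083 for mt-Cytb, 3169 for mt-Nd5, 1204 for mt-Nd2 and 1194 for mt-Nd4. If all reads came from the 75-base stretches that stand in no other annotated transcript, mt-Co1 would have 27504 and mt-Nd4 3277 CPM per kb, with mt-Nd1 at 11166, mt-Cytb at 4366 and mt-Nd2 at 1374. mt-Co1 was thus first of these in D0 either way, while the order of mt-Nd4 and mt-Nd2 was not settled. In D2 the first place was not settled either, as mt-Nd1 had 3824 and mt-Co1 2729 CPM per kb over the whole gene, but 4144 and 4765 over the unshared stretches. The rRNAs had 1075 (mt-Rnr2) and 646 CPM per kb (mt-Rnr1) over the whole gene in D0.

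The 6 other mRNAs, mt-Co2, mt-Atp8, mt-Atp6, mt-Co3, mt-Nd3 and mt-Nd4l, had between 0.840 and 24.2 CPM on average in D0, while none of the 9 abundant mt- RNAs was under 451 CPM. Together they made up 0.129% ± 0.063 of the mitochondrial mRNA reads of a cell in D0, 0.196% ± 0.109 in D1 and 0.0875% ± 0.103 in D2. For 5 of them over 97% of the 75-base stretches stand in a pseudogene, and how the counting treated reads with several matches is not given in the sources used here. The rows of these 5 genes are therefore not given as levels of their transcripts. mt-Atp8, which overlaps mt-Atp6 by 43 bases, was as low (2.95 ± 3.98 CPM in D0). None of its stretches stands in another annotated transcript, but unannotated sequence was not searched. The bases between the twins of mt-Co2 and mt-Atp6 on chromosome 1 were not compared with it. The rows of the twins on chromosome 1 were set beside them. Gm28661, the twin of mt-Co2, had 10.96 CPM in D0 where mt-Co2 had 24.2, Gm10925 had 16.6 where mt-Atp6 had 17.8, and Gm28437 had 13.4 where mt-Co3 had 12.5. For the other two, Gm10222 had 0.952 CPM where mt-Nd4l had 4.94, and Gm28438 had 21.9 where mt-Nd3 had 0.840. All 21 annotated transcripts that matched an mt- gene together had 99.3 CPM in D0, 117 in D1 and 14.5 in D2. Adding them to the mt- rows left the log2 ratios of the mitochondrial share at -0.54 and -1.86, as rows this small could not move it. Reads left uncounted for several matches, if any, are in neither set.

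**Figure D3:**
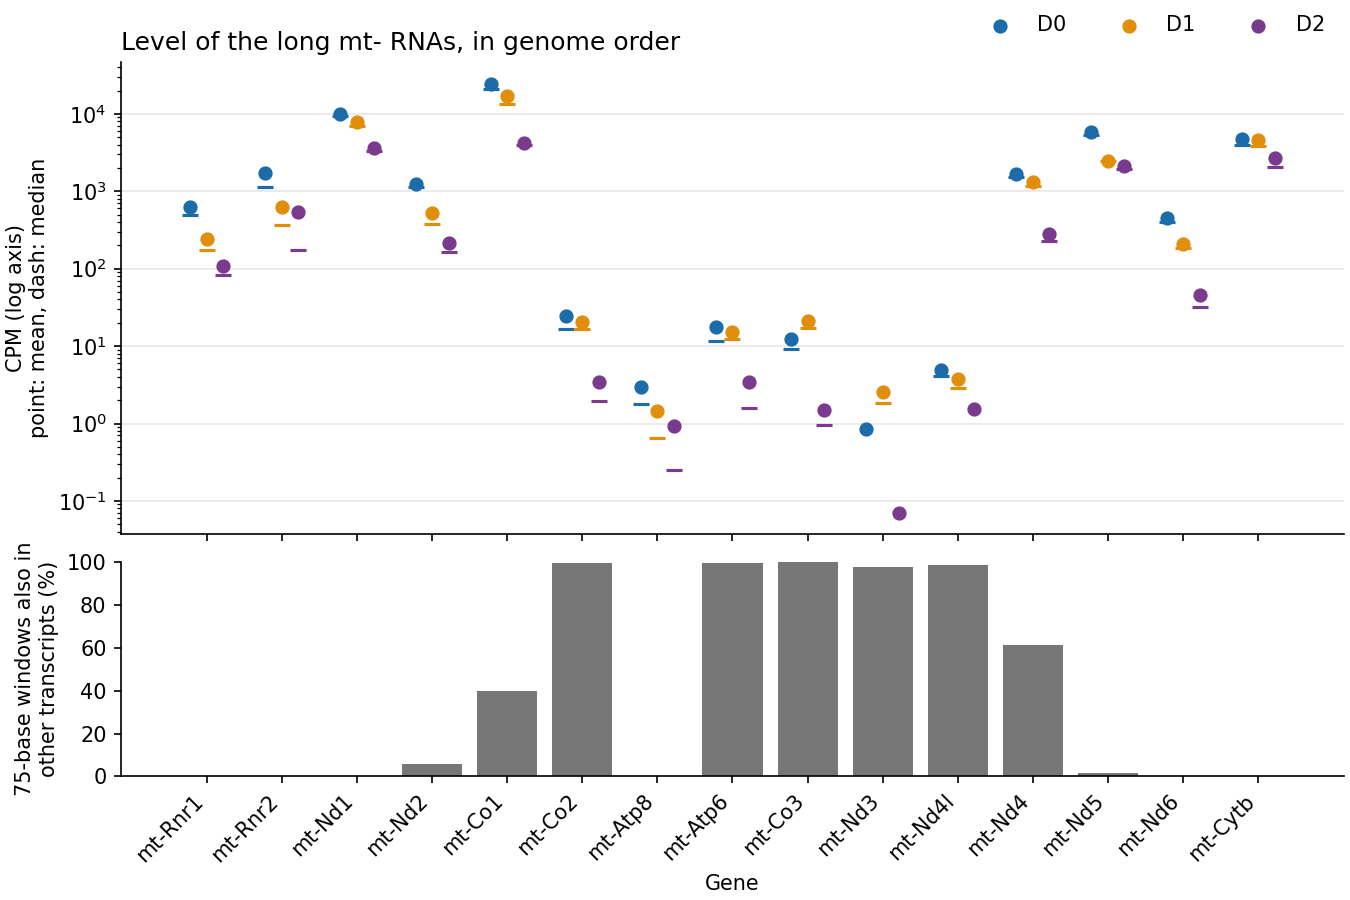
Top, mean (points) and median (dashes, not drawn at 0) CPM over passing cells of each label for the 15 mt- mRNAs and rRNAs in genome order, on a log axis; bottom, percent of each gene's 75-base windows that also stand in another annotated transcript. The genes from mt-Co2 to mt-Nd4l lie below 25 CPM, and 5 of these 6 share over 97% of their windows.

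The row of mt-Nd3, a small core subunit of complex I, was read together with its twin. It had 0.840 ± 1.44 CPM in D0, 2.55 ± 2.78 in D1 and 0.0704 ± 0.329 in D2, a log2 ratio of 1.60 in D1 over D0. Its twin Gm28438, which differs from it by T3C, had 21.9 ± 14.01 CPM in D0, 1.56 ± 4.06 in D1 and 5.12 ± 4.54 in D2. Of the reads on both rows, mt-Nd3 held 6.22% in D0 (238 reads against 3586), 73.3% in D1 (1394 against 507) and 1.47% in D2 (16 against 1074). The summed rows had 22.7 ± 14.4, 4.11 ± 5.12 and 5.19 ± 4.57 CPM, a log2 ratio of -2.46 in D1 over D0. That is opposite in sign to the ratio of mt-Nd3 alone. As reads with several matches may not have been counted, the sum is not given as a level either.

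Within D1 the split went with the Hprt reads, and in D0 and D2 it did not. In the 89 D0 cells with a read on either row, mt-Nd3 never held more than 27.8% of a cell's reads on both. Among the 47 D1 cells with an Hprt read and a read on either row it held more than 50% in 46, with a median of 84.6%. The exception, in well C10, had 8 reads, all on Gm28438. The 2 D1 cells without an Hprt read, in wells B5 and B6, had 0 and 2 reads on mt-Nd3 against 30 and 94 on Gm28438. In D2 mt-Nd3 held over 50% in 1 of 82 cells, which had 2 reads in all. Among cells with an Hprt read and a read on either row, Gm28438 held more than 50% in all 8 of D0 and all 7 of D2. Which base the reads carry at position 3 was not analysed here, since only counts per gene were used.

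**Figure D4:**
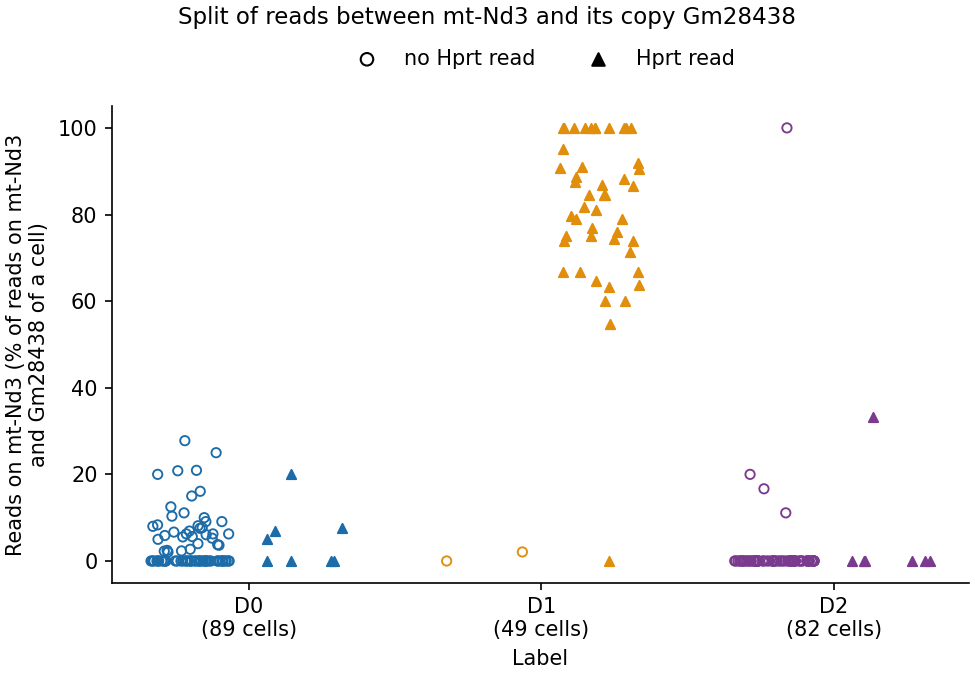
Percent of a cell's reads on mt-Nd3 among its reads on mt-Nd3 and Gm28438 (vertical axis) for cells with a read on either row, by label; filled triangles are cells with an Hprt read and open circles cells without. In D1, 46 of 47 triangles lie above 50% and both circles at or below 2.08%, while D0 cells reach 27.8% at most.

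Differences were called among genes detected in 50% or more of the cells of D0 or of the other label. Of 10494 such genes, 16.7% were lower in D1 by more than 1 in log2(mean CPM + 10), the rule for calling a difference here, and 7.38% were higher. For D2 over D0, 20.5% of 8822 genes were lower and 6.86% higher. Of the mt- rows, 19 could be called in D1 over D0. The 5 lower ones were mt-Rnr1, mt-Rnr2, mt-Nd2, mt-Nd5 and mt-Nd6 (26.3%), and 1 was higher, mt-Tq, whose call rests on few cells. In D2 over D0, 10 of 16 were lower (62.5%) and none was higher. These were mt-Rnr1, mt-Rnr2, mt-Nd1, mt-Nd2, mt-Co1, mt-Co2, mt-Atp6, mt-Nd4, mt-Nd5 and mt-Nd6. The rows of mt-Co2 and mt-Atp6 are not levels of their transcripts, as said above, and without the 5 rows of that kind 8 of 12 were lower in D2 (66.7%) and 5 of 14 in D1 (35.7%). The median over the 9 abundant mt- RNAs was -1.09 for D1 and -2.42 for D2, beside -0.13 and -0.16 over all genes. mt-Cytb (-0.04 and -0.78) had the smallest difference of these 9 in both, and its D1 ratio changed sign without a filter on cells and among cells that match the Hprt check. None of the 5 lower calls in D1 holds without a filter on cells, where the log2 ratios were 0.16 for mt-Rnr1, -0.76 for mt-Rnr2, -0.23 for mt-Nd2, -0.75 for mt-Nd5 and 0.46 for mt-Nd6. With TMM factors 4 of 19 mt- rows were lower in D1 (21.1%, beside 13.1% of all genes) and 9 of 16 in D2 (56.2%, beside 16.3%).

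The tRNA rows held 6388 reads in D0, 25130 in D1 and 560 in D2, over 13, 17 and 11 of the 22 genes. With tRNAs of 59 to 75 bases and reads of 75 bases, a full-length read on such a row mostly extends beyond the tRNA. mt-Tw, mt-Ty, mt-Td and mt-Tg were read in 0 of 233 cells. Such a 0 allows up to 1.29% of cells with a counted read, which says nothing of cells that hold the tRNA uncaptured. mt-Td and mt-Tg lie between genes whose twins stand side by side on chromosome 1, and whether they too match bases there was not checked. Of the 22 rows, 7 had under 1 read per 10 cells in every label. Intervals and such limits cover counting error only. Over 90% of the tRNA reads in each label (91.03%, 92.97% and 93.8%) fell on the 8 tRNAs of the minus strand, the strand of mt-Nd6. Most were on mt-Tq and mt-Tp (60.4% and 21.7% of tRNA reads in D0, 84.1% and 5.24% in D1, 14.5% and 73.9% in D2). Both lie on the minus strand, so these shares do not describe the other tRNAs. Of the 22, 14 lie on the plus strand. Whether the counting used strand is not given in the sources used here.

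mt-Tq had 10.1 ± 22.1 CPM in D0 (lowest cell 0, median 3.35, highest 166), 53.5 ± 138 in D1 (0, 8.39 and 706) and 0.285 ± 1.01 in D2 (0, 0 and 7.17). It took 60.4% of the tRNA reads in D0, 84.1% in D1 and 14.5% in D2. A few cells carried most of it, since the 5 cells with the most reads held 70.2% of the mt-Tq reads in D0 and 72.7% in D1, and 6 D1 cells and 1 D0 cell exceeded 100 CPM. The call of mt-Tq in D1 (1.66 in log2(mean CPM + 10)) is lost without the 5 cells of highest CPM in each label, where the means were 5.79 CPM in D0 and 13.8 in D1 (0.59). Reads of mt-Tq were present in 77.8% of D0 cells (exact 95% interval 67.8% to 85.9%), 92% of D1 cells (80.8% to 97.8%) and 15.1% of D2 cells (8.48% to 23.97%). With each cell thinned to 200000 reads these shares were 48.9%, 68% and 5.38%. Its neighbours mt-Ti and mt-Tm on the plus strand, the first of which overlaps it by 3 bases, had at most 0.297 CPM in any label.

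mt-Tp was spread more evenly. It had 6.90 ± 5.97 CPM in D0 (lowest cell 0, median 6.11, highest 35.4), 2.71 ± 3.06 in D1 (0, 1.67 and 13.3) and 2.00 ± 4.48 in D2 (0, 0 and 24.2), with a read in 93.3%, 94% and 40.9% of cells. At equal depth of 200000 reads it was read in 73.3%, 34% and 10.8%. In D2 it held 73.9% of all tRNA reads, and the next, mt-Tq, had 0.285 CPM there.

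The 13 other tRNAs above the limit of 1 read per 10 cells had at most 1.94 CPM in any label. The highest were mt-Tt, the tRNA for threonine (1.05 CPM in D0, 1.94 in D1 and 0.0401 in D2, read in 33.3%, 74% and 6.45% of cells), and mt-Tc, that for cysteine (1.33, 0.322 and 0.0196 CPM). The D0 mean of mt-Tc rests largely on a cell of 55.7 CPM, with a median of 0. mt-Te had 0.506, 1.06 and 0.0476 CPM, and mt-Tf 0.251, 0.867 and 0. In D1 mt-Ta had 0.312, mt-Tm 0.297, mt-Ts1 0.219, mt-Tl2 0.182 and mt-Tl1 0.109 CPM, and mt-Tv, mt-Ti, mt-Tn and mt-Ts2 had from 0.0178 to 0.0354. In D2 none of these 13 exceeded 0.0877 CPM. At such levels a difference between labels was not read from them.

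The 9 abundant mt- RNAs went up and down together between the cells of D0 and D1, and hardly so in D2. Across the 36 pairs of these RNAs, Spearman's rho of their log2(CPM + 10) had a median of 0.563 in D0 (lowest 0.379, highest 0.836, n = 90 cells), 0.634 in D1 (0.341 and 0.876, n = 50) and 0.130 in D2 (-0.103 and 0.404, n = 93). Pairs above 0.5 numbered 26, 28 and 0. All points of a label share 1 plate and all RNAs of a cell share its depth and its total, so these values are a description. With every cell thinned to 200000 reads the medians were 0.566, 0.626 and 0.142, and without the cell in well A9 that of D2 was 0.102. For the 9 most abundant nuclear genes of the respiratory chain and ATP synthase (Atp5b, Cox4i1, Atp5a1, Atp5c1, Uqcrc1, Atp5j, Ndufa4, Atp5f1 and Uqcrb) the same medians were 0.0550, 0.00528 and 0.0212. The highest value in D0 was that of mt-Co1 with mt-Nd4, and in D1 that of mt-Nd4 with mt-Cytb.

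**Figure D5:**
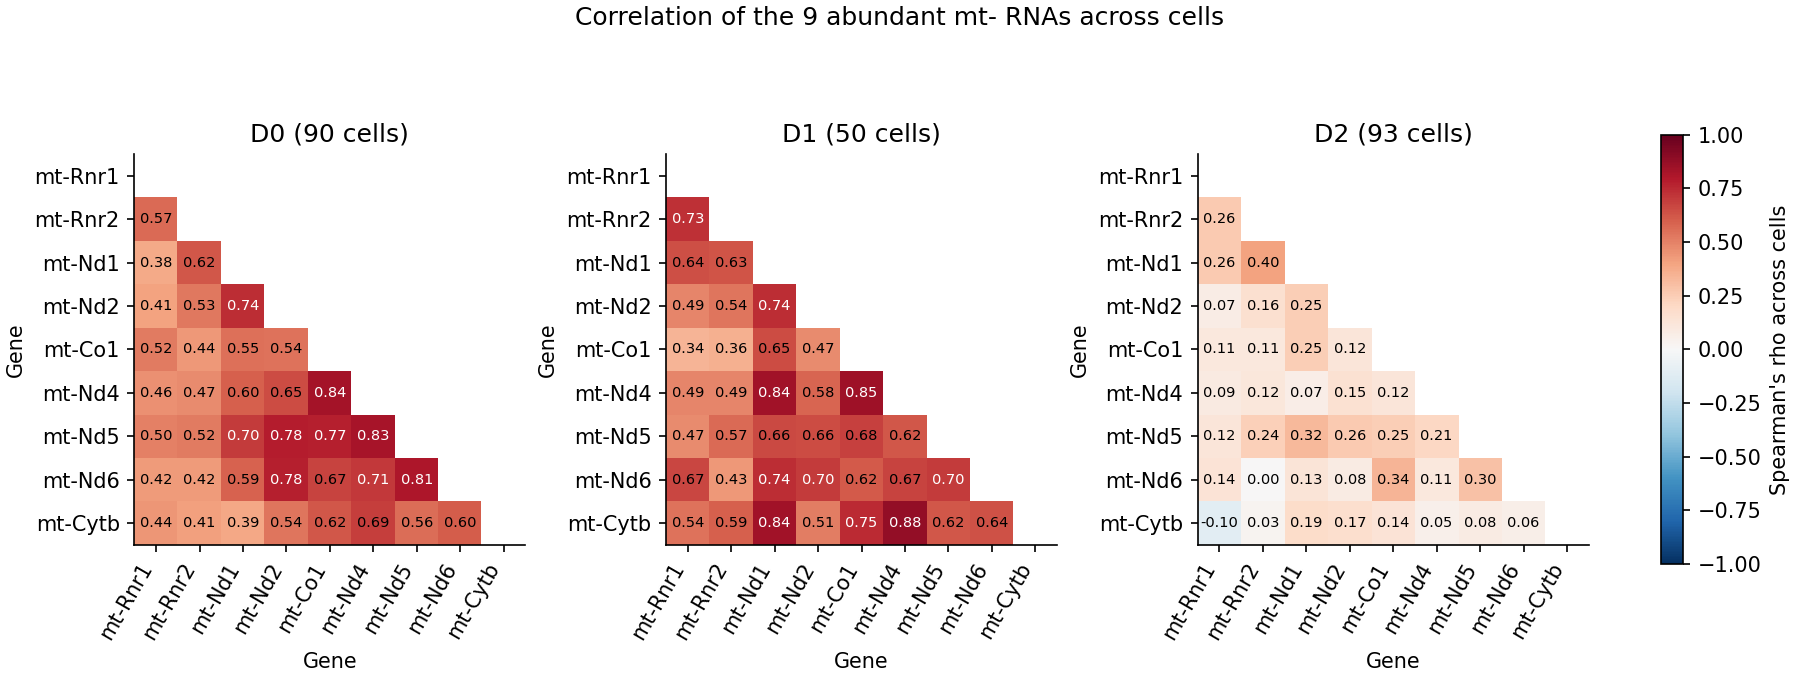
Spearman's rho across the passing cells of each label for each pair of the 9 abundant mt- RNAs in genome order, from log2(CPM + 10), with the value printed in each field. The values lie between 0.379 and 0.836 in D0, between 0.341 and 0.876 in D1 and between -0.103 and 0.404 in D2.

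The ratios of neighbours in genome order also varied more between D2 cells. Over the 8 neighbouring pairs of these RNAs, the SD between cells of the log2 ratio of their reads had a median of 0.59 in D0 (0.42 to 0.80), 1.01 in D1 (0.56 to 1.21) and 2.39 in D2 (1.57 to 3.12). With thinned cells the medians were 0.60, 1.04 and 2.21. The mt-Nd4 to mt-Co1 ratio, the steadiest of all in D0, averaged -3.85 ± 0.42 in D0, -3.59 ± 0.56 in D1 and -4.66 ± 2.30 in D2. None of the 9 was without a read in any D0 or D1 cell, while 9 of 93 D2 cells lacked at least 1 of them, 8 of 92 without the cell in well A9. The median SD over mean of the 9 RNAs was 0.922 in D2, against 0.509 in D0 and 0.721 in D1. Not all followed it, as mt-Co1 (0.508 in D2, 0.509 in D0 and 0.681 in D1) was lowest in D2 and mt-Nd1 was lower in D2 (0.559) than in D1 (0.601). mt-Rnr2 (1.48 in D2, 1.75 in D0 and 1.51 in D1) was lowest in D2 too, but its values include a D0 cell of 27822 CPM and a D1 cell of 6182 CPM. Its order without these cells was not computed, so it is not read as an exception. The sum of the mt- rows varied less in D2 (0.377) than in D0 (0.425) and D1 (0.556). The 9 nuclear genes had a median SD over mean of 0.355 in D0, 0.494 in D1 and 0.522 in D2. D2 libraries held fewer genes at equal depth, as given above, and the part of this in the spread of D2 was not tested.

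The mitochondrial share of a cell was also set against its depth. Spearman's rho between the share and the reads of a cell came to 0.286 for D0, 0.126 for D1 and -0.458 for D2, and with the number of detected genes in thinned cells 0.0136, 0.145 and 0.0199. With the summed share of the 76 nuclear genes of the respiratory chain and ATP synthase it was -0.412, -0.210 and 0.152.

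The nuclear genes of the same complexes were mostly not lower where the mt- rows were. Of the 76 nuclear subunits of the respiratory chain and ATP synthase, all of which could be called, none was lower in D1 over D0 (16.7% of all genes were), 13 (17.1%) were higher beside 7.38% of all genes, and the median was 0.40. In D2 over D0 2 were lower (2.63%, beside 20.5% of all genes) and 2 higher (2.63%, beside 6.86%), the latter being Ndufa8 of complex I (1.29) and Cox7c, and the median was 0.29. The largest differences in D1 included Uqcrq of complex III (225 ± 288 CPM in D0 and 770 ± 600 in D1, 1.73), Atp5e of ATP synthase (48.1 ± 42.1 and 174 ± 159, 1.67) and Ndufs5 of complex I (47.2 ± 50.8 and 159 ± 115, 1.56). Cox7c of complex IV was higher in both (1.11 and 1.04), and Sdha, the flavoprotein of complex II, which has no mitochondrially encoded subunit, was at -0.99 and -0.43. In D2 the 2 lower ones were Uqcrb (-1.40) and Atp5g3 (-1.19). Scaling by TMM factors shifts log2 ratios by 0.21 in D1 and 0.28 in D2 and leaves none of the 76 lower in D1 and 1 lower in D2, with 22 (28.9%, beside 10.3% of all genes) and 10 higher (13.2%, near the 11.9% of all genes). It raises the higher genes from 30.6% to 43.9% of all calls in D1 and from 25.1% to 42.04% in D2.

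Of 77 proteins of the mitochondrial ribosome that could be called, 17 were higher in D1 (22.1%, beside 7.38% of all genes) and 17 in D2 (22.1%, beside 6.86%), and none was lower in either. The medians were 0.73 and 0.66. With TMM factors 34 and 33 of the 77 were higher (44.2% and 42.9%, beside 10.3% and 11.9% of all genes). Mrps24 (72.6 ± 40.2 CPM in D0, 410 ± 242 in D1, 2.34) and Mrpl52 (21.5 ± 28.4 and 150 ± 140, 2.34) led in D1, and Mrpl45 (150 ± 77.9 CPM in D0, 477 ± 477 in D2, 1.60) and Mrpl11 (1.57) in D2.

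Genes that process or stabilise mitochondrial RNA were called lower no more often than all genes. Grsf1, which binds RNA in mitochondrial RNA granules, had 466 ± 264 CPM in D0, 54.03 ± 50.4 in D1 and 51.5 ± 107 in D2 (-2.89 and -2.95). Lrpprc, which protects mitochondrial mRNAs and promotes their polyadenylation, had 205 ± 135, 68.3 ± 55.8 and 96.6 ± 228 CPM, and was called lower in D1 (-1.46) and just past the limit in D2 (-1.01), the latter named after its value was seen. Pnpt1, a mitochondrial ribonuclease, was at -1.06 in D2. Among the 20 genes of RNA processing and stability, 2 of 20 were lower in D1 and 3 of 18 in D2, where 16.7% and 20.5% of all genes were, and none was higher. The largest positive values were those of Elac2, which cuts tRNA 3' ends (0.86 in D1), and Rexo2, an oligoribonuclease (0.98 in D2).

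Of 9 genes of mitochondrial transcription and termination, 7 could be called in D1 and 6 in D2, and 0 were called in either direction, where 16.7% and 20.5% of all genes were lower and 7.38% and 6.86% higher. Tfam, which packs the DNA and starts transcription, had 59.9 ± 50.02 CPM in D0, 116 ± 73.7 in D1 (0.84) and 59.6 ± 123 in D2, and Polrmt, the RNA polymerase, 41.2 ± 46.5, 16.5 ± 23.6 (-0.95) and 46.2 ± 180. Among genes of mitochondrial DNA upkeep, Polg, the catalytic subunit of the DNA polymerase, had 84.9 ± 80.6, 17.99 ± 24.8 and 19.5 ± 49.7 CPM (-1.76 and -1.69). Primpol was lower in D1 (-1.32) and Tk2, the mitochondrial thymidine kinase, in D2 (-1.42), so that 2 of 9 were called lower in D1 and 2 of 8 in D2, counts near the 16.7% and 20.5% of all genes. Of the translation factors, 0 of 10 were called in D1 and 1 of 7 in D2, the initiation factor Mtif2 (-1.28), beside the same shares of all genes.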

How the data were processed

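RNA libraries (75-bp paired-end reads) of 288 single-cell wells were used. The authors aligned with HISAT2 to GRCm38, as named in the submitters' processing notes, and the deposited values are raw counts of reads, although the sample descriptions name a filtered normalized table. The counting tool, annotation and use of strand are not given in the sources used here.

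Cells passed with over 200000 reads, over 2000 genes and a mt- fraction under 0.15. The study's text prints that limit with a percent sign, a reading that 1 of 233 passing cells would meet. Passing cells had 202157 to 43336922 reads. CPM used each cell's total, and means weighted cells equally. Each label is 1 culture, so no test was run. A difference was called past 1 in log2(mean CPM + 10), for genes detected in 50% or more of the cells of either label. Intervals were exact (Clopper-Pearson, 95%), and a count of 0 was limited at 3 counts. Thinning drew 200000 reads per cell, and ratios within a cell used an offset of 0.5 reads.

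Positions and transcripts came from GENCODE vM21, which may not be the authors' annotation. Twins were found as identical 75-base windows and with blastn 2.17.0 (E-value limit 1e-20). The text accounts for all 37 mt- rows. tRNA rows with fewer than 1 read per 10 cells in every label were only counted. From each nuclear list the 2 largest rises and 2 largest falls in D1 and D2 could be named. Members, lists and alternatives were chosen with earlier results of these data known. Adding the twins, leaving out the cell in well A9, the thinned correlations, the nuclear genes set beside them, mt-Tq without its top cells, the calls without shared rows and the mt-Nd3 split were chosen after values were seen. The call rule was tested on simulated data. Software was Python 3.11.15, numpy 2.4.6, pandas 2.3.3, scipy 1.17.1, matplotlib 3.10.9, R 4.3.3 and edgeR 4.0.16 (TMM factors of summed reads only). Alternatives covered the filter on cells, the summary over cells, the denominator, scaling, depth and plate position.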

Additional observations from a re-analysis of the deposited data

Results flagged for a closer look

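Wells left out by the filter enter no comparison of the report except the alternative without a filter on cells, and were looked at for that reason. Of these, 3 D1 wells had a mt- share above the highest passing D0 cell (10.4%). Well G12 had 34.2% of its 2546 reads on mt- rows (871 reads, exact 95% interval 32.4% to 36.1%), with 357 genes detected. Well B1 had 12.6% of 223 reads (28 reads, interval 8.51% to 17.6%), and well A2 had 11.1% of 90 reads (10 reads, interval 5.46% to 19.5%). The intervals of B1 and A2 reach below 10.4%, so that an excess was not detectable at this depth. The median share of the 46 left-out D1 wells was 2.65%. The cause was not tested.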

How the results depend on the processing

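Values are log2 ratios of the mitochondrial share for D1 over D0, D2 over D0 and D2 over D1, then of the rRNA to mRNA ratio for D1 over D0 and D2 over D0, where it could be computed. They were -0.54, -1.86, -1.32, -0.87 and 0.04 as reported. Without a filter on cells (all wells of at least 1000 reads) they were -0.52, -1.84, -1.31, -0.17 and 0.0087. With limits of 300000 reads and 3000 genes they were -0.57, -1.90, -1.33, -0.93 and 0.083. With reads summed over cells they were -0.59, -2.14, -1.55, -1.31 and -0.073. With medians over cells they were -0.45, -1.78, -1.33, -0.93 and -0.82. In inner wells they were -0.54, -1.75, -1.21, -0.66 and 0.23. In plate columns 1 to 6 they were -0.23, -1.69, -1.46, -0.81 and 0.45. In columns 7 to 12 they were -0.83, -2.01, -1.18, -0.90 and -0.30. With cells that match the Hprt and Y-linked check, which keeps D1 apart from D0 and D2, they were -0.48, -1.84, -1.36, -0.65 and 0.0499. Thinned to 200000 reads they were -0.54, -1.85, -1.32, -0.86 and 0.05. Without the D2 cell in well A9 they were -0.54, -1.84, -1.31, -0.87 and 0.054. With the twins added, whose rows are too small to move the share, they were -0.54, -1.86, -1.32, -0.87 and 0.04. With reads outside the mt- rows as denominator they were -0.56, -1.93 and -1.37. With TMM factors they were -0.38, -1.86 and -1.49. With median-of-ratios factors they were -0.48, -1.92 and -1.43. Leaving out each cell in turn gave -0.60 to -0.52, -1.88 to -1.84, -1.34 to -1.26, -0.97 to -0.71, -0.026 to 0.19, in the same order. Without the limit on the mt- share no value moved. The share kept its sign in all 15 alternatives to each comparison. The rRNA to mRNA ratio kept it in 12 of 12 for D1 and in 9 of 12 for D2, whose direction is therefore not given as a result. The cause of these differences was not tested.

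Of the mt- genes, these changed sign from a ratio that was past 1 as reported. Without a filter on cells, mt-Rnr1 and mt-Nd6 in D1 over D0 became 0.16 and 0.46. With summed reads, mt-Ta in D1 became -1.19 and mt-Ts1 in D2 -0.23, and with TMM factors mt-Ta was -0.99. With median-of-ratios factors they were -1.09 and -0.00069. Thinned, mt-Tf in D1 was -0.61. In columns 7 to 12, mt-Ta and mt-Te in D1 were -0.26 and -0.41. With the twin added, mt-Nd3 in D1 was -2.46. The cause was not tested, except that the last follows from the added reads. The tRNAs named here rest on few reads, which limits what their ratios can show. Ratios over D0 that were smaller as reported also changed sign in D1 under some alternatives: mt-Co2 (up to 0.33), mt-Atp6 (up to 0.09), mt-Nd4l (up to 0.02), mt-Cytb (up to 0.03), mt-Tv (up to 0.85) and mt-Tt (down to -0.11). Without the 5 cells of highest CPM, chosen after seeing the data, mt-Tq in D1 was 0.59 in log2(mean CPM + 10) and no longer called.

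No paired analysis was possible because the numbers that labels share are well positions on separate plates, each label is 1 culture, and no test was run.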
